A study of Mus musculus with 4 samples.

Results

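Fibronectin, the product of Fn1, is a large secreted glycoprotein of the extracellular matrix, and its transcript was examined for contacts with the RNA helicase eIF4A3. The members are the peaks of 1 deposited list that lie on the minus strand of chromosome 1 within the mm9 span of Fn1, which gave 64 of 30763 peaks (0.208%). Fn1 was chosen with the number of its peaks and their listed −log10 p already known, so their number, fold changes and p-values are given as a description and are not tested. The peaks come from enhanced crosslinking and immunoprecipitation (eCLIP), in which ultraviolet light ties proteins to the RNA they touch and an antibody recovers the protein with its RNA fragments. The series holds 2 eIF4A3 eCLIP libraries, made with an antibody to eIF4A3, and 2 input libraries, made without an antibody. All 4 came from the mouse embryonic stem cell line J1 (strain 129S4/SvJae), grown without feeder cells in serum and leukemia inhibitory factor and irradiated with 400 mJ/cm2 at 254 nm. The labels name no genetic change or drug for either group. The 2 libraries of each group were biological replicates, but each peak has 1 fold change and 1 p-value for the whole series, so no spread between replicates can be given. Read totals are not listed, and the depth under the peaks is therefore unknown. The list holds no expression values, so the cell type could not be checked against its marker genes.

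Fibronectin is built from repeated modules. Type I and type II modules, held by disulfide bonds, form the amino-terminal part that takes part in binding fibrin, collagen and other matrix molecules, a long series of type III modules carries the integrin-binding Arg-Gly-Asp motif, and further type I modules lie near the carboxy terminus. The transcript is a classic case of alternative splicing: the extra domains B and A (ED-B and ED-A) are type III modules encoded by single exons that can be skipped, and the variable region is spliced in several forms. eIF4A3 clamps RNA as the core of the exon junction complex, which splicing deposits a short distance upstream of exon junctions.

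The peaks were set on exons of GENCODE M21, which is on the build GRCm38, by 1 constant shift between the builds, since no mm9 annotation was used. Among 100001 shifts tried, a single one, of 46574 nt, placed all 1530 peak bases inside exons of the coding Fn1 transcripts. Shifts of 1 nt less and 1 nt more kept 1525 and 1527 bases, and the best shift more than 200 nt away kept 541 (35.4%). Because the shift was chosen on this overlap, the overlap alone is no evidence of exon binding. Peaks that had not chosen it were used as a check. The 32 peaks nearest the 5′ end gave the same shift, and at it all 624 bases of the other 32 peaks lay in exons. Likewise, the 32 peaks nearest the 3′ end gave the same shift, and at it all 906 bases of the rest lay in exons. At the same shift, all 17 other peaks within 1 Mb, on 4 neighbouring genes, overlapped a coding-transcript exon on their own strand, against 1 of 17 with no shift. Within 3 Mb the count was 45 of 47, with 0 of 47 on an exon of the opposite strand. The exons are numbered 1 to 46 after the coding Fn1 transcript with the most exons, out of 9. Whether the list counts positions from 0 or from 1 is not stated, so every position and distance may be off by 1 nt.

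The sequences that carry the result are those of the alternative ED-B and ED-A exons, the first with peaks and the second without, and those of the peaks at the highest −log10 p. The letters come from the GENCODE M21 sequence of the same transcript, from the minus strand of chromosome 1 on GRCm38, and are those of the reference genome, not of J1 cells. All are given 5′ to 3′. In exons 25 and 33, which are printed whole, bases inside any peak would be in capitals. The ED-B exon is exon 25 (chr1:71613763-71614035 on GRCm38) and the ED-A exon is exon 33 (chr1:71603660-71603929 on GRCm38), both wholly coding.
Exon 25, whole: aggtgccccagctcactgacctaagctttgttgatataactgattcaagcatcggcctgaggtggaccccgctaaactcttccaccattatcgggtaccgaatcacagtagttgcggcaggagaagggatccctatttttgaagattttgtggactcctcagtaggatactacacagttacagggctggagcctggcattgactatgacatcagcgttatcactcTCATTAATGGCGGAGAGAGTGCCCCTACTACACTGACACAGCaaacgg
Exon 33, whole: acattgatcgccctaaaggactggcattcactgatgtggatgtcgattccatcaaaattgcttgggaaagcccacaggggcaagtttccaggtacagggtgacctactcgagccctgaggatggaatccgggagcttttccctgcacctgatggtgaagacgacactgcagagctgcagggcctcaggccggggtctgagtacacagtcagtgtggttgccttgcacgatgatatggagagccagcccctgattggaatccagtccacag
From each exon but exon 1, the peak at −log10 p of 400 with the highest fold change is given in capitals. What remains of the exon follows in lower case where that is at most 40 nt. Other peaks are not marked there, and most of the lower-case bases of exons 7 and 12 lie in other peaks.
Exon 5, from base 80 to its end: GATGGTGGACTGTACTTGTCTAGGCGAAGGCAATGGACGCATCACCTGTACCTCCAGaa
Exon 6, from base 89 to its end: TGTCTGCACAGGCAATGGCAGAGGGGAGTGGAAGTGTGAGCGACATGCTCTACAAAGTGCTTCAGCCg
Exon 7, from base 136 to its end: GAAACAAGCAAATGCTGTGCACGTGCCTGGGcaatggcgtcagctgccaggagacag
Exon 12, from base 75 to its end: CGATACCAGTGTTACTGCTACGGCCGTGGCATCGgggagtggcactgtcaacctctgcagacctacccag
Exon 19, bases 72 to 133: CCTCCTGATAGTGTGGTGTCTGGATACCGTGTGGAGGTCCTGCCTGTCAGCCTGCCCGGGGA
In exons 5 and 6 the peak runs to within 2 nt of the last exon base, and in exons 7 and 12 it stops 26 and 36 nt short of the junction. In those 2 exons adjoining peaks continue from it. They reach base 2 from the end of exon 7 and base 7 from the end of exon 12, the last exon base counting as 1. In exon 19 the printed peak lies away from both ends, nearer the exon start. The corresponding peak of exon 1 is not printed because part of it is untranslated.

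eIF4A3 peaks were gathered in the 5′ part of the Fn1 transcript. Of its 46 exons, 22 carried at least 1 peak and 24 carried none, and every exon from 1 to 15 was among the 22. Beyond exon 15, peaks were found in exons 19, 25, 26, 27, 28, 44 and 45. The exons without a peak formed 4 runs, exons 16 to 18, exons 20 to 24, exons 29 to 43, and exon 46. The longest run, of 15 exons, spanned 2532 nt of transcript. Peaks covered 18.4% of the 8315 nt of the transcript. An exon without a peak had no listed stretch. The lowest fold change of the list is just above 4 and its lowest −log10 p is 5.01. Any other limits of the peak calling are not known, so contacts that were weaker or left out by it are not seen here. No peak lay on the opposite strand within the span, and the nearest peak outside it on the same strand was 484189 nt away.

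**Figure D1:**
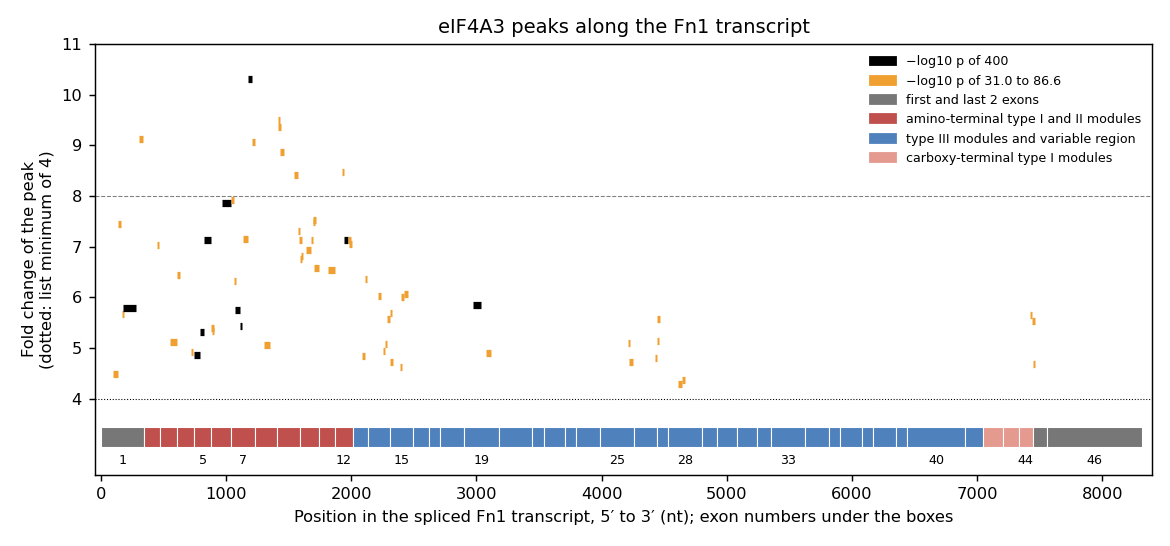
Fold change of each of the 64 Fn1 peaks (horizontal marks, vertical axis, linear) against its position in the spliced transcript in nt, with exons as boxes coloured by module type; black marks have a −log10 p of 400 and narrow peaks are drawn at least 18 nt wide. All 8 peaks above the dashed line at 8-fold lie within exons 1 to 12.

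The exons were grouped by their in-frame cysteine codons. The codon counts do not use the peaks, but these groups were chosen with earlier results of these data known. Each of exons 2 to 12 and of exons 42 to 44 held exactly 4, the pattern of disulfide-bonded type I and type II modules, while the 29 exons from 13 to 41 held at most 1. All 11 amino-terminal type I and II exons carried peaks, 36 in all, and 53.8% of their 1668 nt was covered. Exon 1, which encodes the signal peptide, carried 5 peaks over 58.7% of its 344 nt. Of the 29 exons of the type III modules and the variable region, 8 carried peaks, 20 in all, and 7.97% of their 5031 nt was covered. Of the 3 carboxy-terminal type I exons, exon 44 alone carried peaks, 2 of them, and 5.28% of 398 nt was covered. Density was 21.6 peaks per kb of exon in the amino-terminal modules and 3.98 per kb in the type III and variable exons. The carboxy-terminal exons share the cysteine pattern of the amino-terminal ones but not their coverage. Apart from these carboxy-terminal exons, position in the transcript and module type go together in this gene, and their parts in the pattern were not tested.

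**Figure D2:**
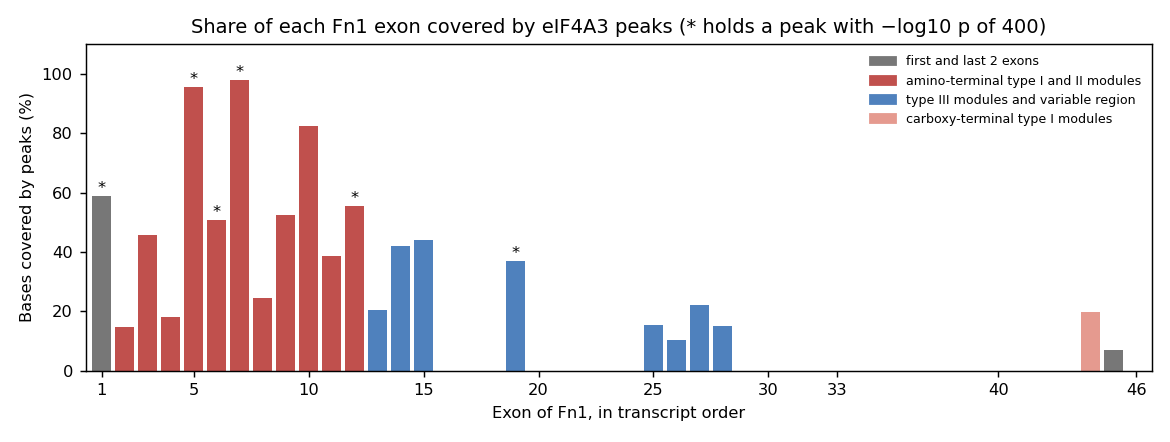
Share of bases covered by eIF4A3 peaks (percent, from 0) for each of the 46 Fn1 exons in transcript order, coloured by module type, with exons that hold a peak at a −log10 p of 400 starred. Coverage reaches 97.9% in exon 7 and 95.7% in exon 5 and is 0 in exons 29 to 43.

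Fold changes were moderate and −log10 p was high. All fold changes and p-values here are the authors' deposited values, and no source used here says which libraries form the top and bottom of the fold change. The median fold change was 6.02 for Fn1 (quartiles 5.12 and 7.13, range 4.29 to 10.3) and 6.57 over the whole list. Of the Fn1 peaks, 8 of 64 (12.5%) were at least 8-fold with p at most 0.001, beside 32.3% of the whole list, and nothing is read from this since the members were chosen on these values. The median −log10 p was 58.7 for Fn1 and 10.4 over the list. The lowest value in Fn1, 31.0, was reached by 2060 peaks of the list (6.70%). Peaks were narrower than in the list as a whole, with a median width of 20 nt in Fn1 and 32 nt in the list. There were 27 pairs of neighbouring Fn1 peaks that adjoined with no base between them, and no count of such pairs over the list is given here. Joining peaks within 50 nt gave 26 sites with a median span of 44.5 nt, and none of them crossed an intron.

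**Figure D3:**
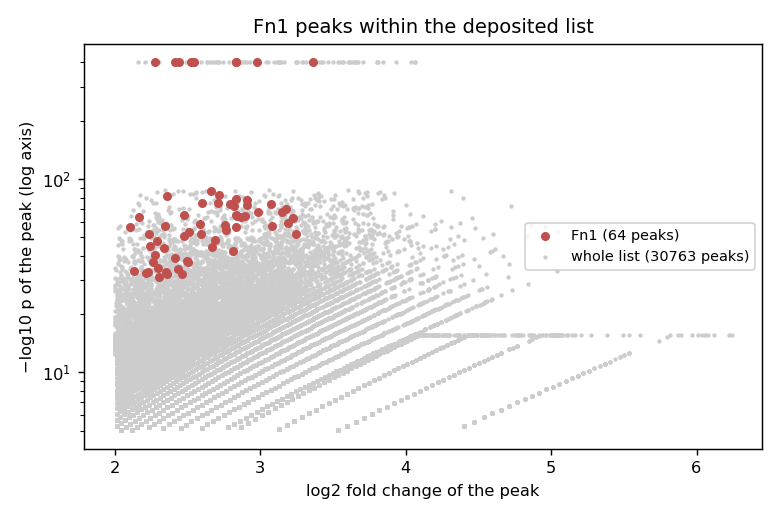
The 64 Fn1 peaks (red) and all 30763 peaks of the list (grey), with log2 fold change on the horizontal axis and −log10 p on a logarithmic vertical axis. Fn1 peaks lie at a −log10 p of 31.0 or above, and 10 of them in the row at 400.

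A −log10 p of 400 was given to 10 of the 64 Fn1 peaks. It is the highest value of the list, which 89 peaks (0.289%) share. The next lower value anywhere in the list is 88.1, and in Fn1 it is 86.6, so 400 does not rank these peaks among themselves. They lay in 6 exons: 3 each in exons 5 and 7, and 1 each in exons 1, 6, 12 and 19. In exon 5, adjoining or nearly adjoining peaks of 43, 32 and 57 nt had fold changes of 4.85, 5.32 and 7.13 in 5′ to 3′ order, so the highest stood nearest the next junction. In exon 7, 7 peaks covered 188 of 192 nt. Its peaks at 400 measured 38, 22 and 31 nt, with fold changes of 5.76, 5.43 and 10.3. The last of these, chr1:71689560-71689590 on mm9, had the highest fold change of all Fn1 peaks. Exon 6 held a peak of 67 nt at 7.87-fold that ended at the exon's last base but 1, and exon 12 held one of 34 nt at 7.13-fold. Exon 19 held the only one in the type III exons, 62 nt wide at 5.85-fold. The peak of exon 1 was the widest in Fn1 at 102 nt, with a fold change of 5.80, and lay across the start of the coding sequence, which follows 193 untranslated nt. Peaks at 400 were wider than the rest, with medians of 40.5 and 16.5 nt, while their median fold change was 5.82 and that of the other 54 peaks 6.05.

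The 5 highest fold changes came from 3 exons: 10.3 and 9.06 in exon 7, 9.49 and 9.37 in exon 9, and 9.13 in exon 1. Exon 9, with 6 peaks, had the highest median of any exon at 8.64-fold, although none of its peaks reached a −log10 p above 74.5. The 3 lowest were 4.29 and 4.38 in exon 28 and 4.48 in exon 1. By module group, the median fold change was 7.09 in the amino-terminal type I and II exons, 5.80 in exon 1, 5.09 in the type III and variable exons and 5.58 in exon 44. Exon 45 held 1 peak at 4.69-fold. Over the 64 peaks, log2 fold change had a Spearman rho of -0.36 with position in the transcript, and −log10 p one of -0.41. Both are descriptions, since neighbouring peaks can share reads and all share 1 RNA.

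Of the alternative exons, ED-B carried peaks, while ED-A and the variable region carried none. ED-B is exon 25, of 273 nt, and is present in 1 of the 7 coding transcripts with over 40 exons. It held adjoining peaks of 6 and 36 nt, with fold changes of 5.10 and 4.73 and −log10 p of 33.2 and 45.2. Together they span chr1:71660343-71660384 on mm9, and the nearer one ends 6 nt before the last base of the exon. ED-A is exon 33, of 270 nt, present in 4 of the 7, and had no peak. The variable region is exon 40, whose longest form of 467 nt is in 3 of the 7, and it had no peak in any form. The gaps at ED-A and the variable region are not confined to alternative exons, because they fall inside the run of 15 exons without a peak, of which the other 13 are in all 7 transcripts. The ED-B peaks, in turn, follow the gap of 5 exons from exon 20 to exon 24 and are followed by peaks in exons 26, 27 and 28. In-frame codons for Arg-Gly-Asp were found in exons 30 and 40, both without a peak.

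Within exons, peaks lay more often near the end next to the following junction than near the start. Of the 22 exons with a peak, 16 (72.7%) had one in the stretch 15 to 35 nt upstream of the exon's 3′ end, where the last exon base counts as 1. In the same stretch downstream of the exon start, 5 of 21 exons (23.8%) had one, exon 1 being left out since no junction precedes it. Among those 21 exons, 11 had the upstream stretch alone covered, 1 the downstream stretch alone, 4 both and 5 neither. Coverage was highest from 17 to 20 nt upstream of the junction, where 15 of 21 exons lay in a peak. In the median exon, the peak nearest the 3′ end stopped at base 6.5 from that end, and the peak nearest the start began at base 73.5. The 6 exons whose 3′ stretch was not covered were exons 8, 15, 19, 27, 28 and 45. Counted by peak and not by exon, the difference was smaller, with 37 of 64 peak centres (57.8%) nearer the exon's 3′ end than its start. For the 45 exonic peaks of neighbouring genes within 3 Mb, that count was 20 (44.4%), and the difference was not tested. The counts are not fully alike. Neighbouring peaks were placed in the longest overlapping exon of any coding transcript, last exons included, and Fn1 peaks in the exons of 1 transcript. Of the 45, 18 lay in the gene Tns1. The Fn1 counts are descriptions of 1 transcript, whose exons are not replicates.

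**Figure D4:**
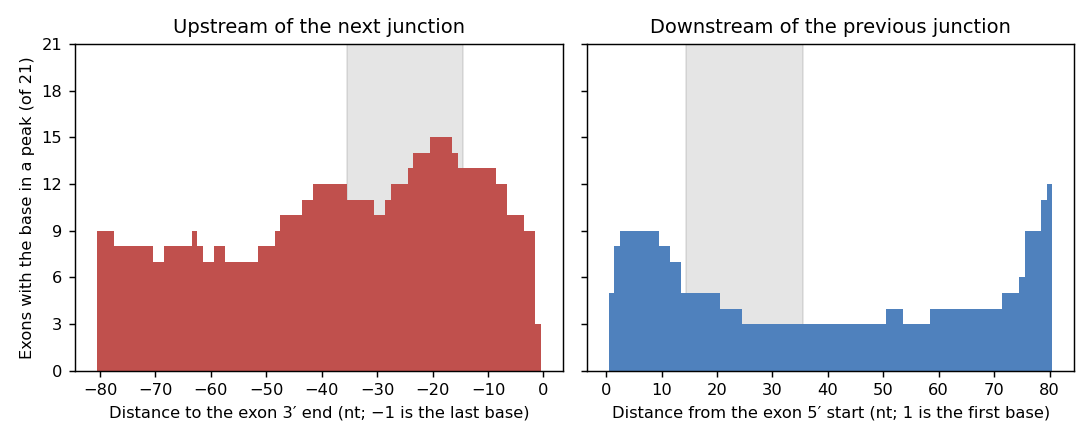
Number of exons, of 21 with a peak and junctions on both sides, in which the base at each distance (nt) from the exon 3′ end (left) or from the exon 5′ start (right) lies in a peak; grey bands mark 15 to 35 nt. The left panel peaks at 15 exons between 17 and 20 nt, and 5 exons or fewer are covered throughout the grey band on the right.

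Peaks also met across junctions. At 7 of the 45 junctions, a peak reached within 3 nt of the upstream exon's end and another began within 3 nt of the downstream exon's start, a distance chosen after the values were seen. These junctions join exons 3 and 4, 5 and 6, 6 and 7, 9 and 10, 14 and 15, 26 and 27, and 44 and 45, over introns of 173 to 3154 nt. A peak reached the upstream edge alone at 3 junctions and the downstream edge alone at 2. The peaks of exons 27 and 45, of 20 and 8 nt, were the only ones in their exons and both lay at the start, against a peak at the end of the exon before. Joined within 50 nt along the spliced transcript, the 64 peaks formed 18 sites, against 26 along the genome.

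Length, GC content and the following intron overlapped widely between exons with and without a peak. The 22 exons with a peak had a median length of 154.5 nt and a median GC content of 54.6%, and the 24 without had 160.5 nt and 53.1%. The median length of the intron that follows was 1209 nt for exons with a peak and 916 nt for exons without, and the ranges overlapped, from 173 to 5089 nt and from 208 to 3258 nt. The last exon, of 760 nt and mostly 3′ untranslated, is followed by no junction and had no peak.

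The main Fn1 cluster, joined in steps of at most 10 kb, holds 54 of the 64 peaks, those of exons 1 to 19. It was set beside the 3 loci with the nearest number of peaks at 400. Its median fold change was 6.48, beside 6.13 at chr2:130100370-130102593 (plus strand), 8.90 at chr13:6599846-6624459 (minus strand) and 6.52 at chr6:51414436-51419829 (minus strand), all on mm9. Peaks at 400 were 10 of 54 in the Fn1 cluster, 10 of 23 on chromosome 2, 12 of 50 on chromosome 13 and 7 of 24 on chromosome 6. Peaks past 8-fold were 8 of 54 in the Fn1 cluster, 6 of 23 on chromosome 2, 30 of 50 on chromosome 13 and 8 of 24 on chromosome 6. Median −log10 p was 64.3 in the Fn1 cluster and 53.0, 59.7 and 69.2 on chromosomes 2, 13 and 6. Median peak width was 21.5 nt in the Fn1 cluster and 22, 19 and 26.5 nt on chromosomes 2, 13 and 6, so narrow peaks were not particular to Fn1. Among the 272 clusters with at least 20 peaks, the Fn1 cluster stood in place 2 by median −log10 p and in place 152 by median fold change. Place 2 depends on leaving out the Fn1 peaks beyond exon 19. Over all 64 Fn1 peaks the median −log10 p was 58.7, below the 59.7 of the chromosome 13 locus. The −log10 p was also known when the gene was chosen. These orders are descriptions without a test, since 1 list gives no replicate spread.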

How the data were processed

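eCLIP libraries of J1 mouse embryonic stem cells (2 eIF4A3 eCLIP, 2 input) were sequenced as paired reads of 50 nt, per the labels' protocols. Build mm9, STAR 2.6.1b and cutadapt 1.18 are listed, per the submitters' processing notes. The deposited table gives each peak's log2 fold change and its −log10 p as the authors' values. The sources used here do not say which peak caller and test were used or whether replicates were pooled. The members and the gene's exon groups were chosen with earlier results of these data known.

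Start and end were read as both inside the peak. The constant shift to GENCODE M21 (GRCm38) was scanned from 0 to 100000 nt for the most peak bases in exons of coding Fn1 transcripts. The scan was tested on simulated peaks, and a run counted as correct if it came within a few nt of the planted shift. When some peaks were made to reach exon edges, nearly all runs had to be correct, and this was met. Without such peaks, the scan was off by several nt in some runs. Peaks within 50 nt form a site and within 10 kb a cluster. Named are the peaks at the highest −log10 p, the 5 highest and 3 lowest fold changes, the widest peak, all peak-free and alternative exons, the first and the last exon, and the 3 loci nearest in peaks at 400. No test was made on values that chose the members. Alternatives concern thresholds, joining distance, overlap, exon models, the shift and the end window. Python 3.11.15, numpy 2.4.6, pandas 2.3.3, scipy 1.17.1 and matplotlib 3.10.9 were used.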

Additional observations from a re-analysis of the deposited data

How the results depend on the processing

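No paired analysis was possible because the list gives no values per library. Leaving out a replicate was likewise not possible. Of 28 alternatives, 20 were classed as leaving their result the same and 8 as moving it. The 20 include some sizeable changes. The sites rose from 26 to 37 when only adjoining peaks were joined. The share of peaks nearer the exon's 3′ end fell from 57.8% to 50.0% among peaks past 8-fold. With stricter limits, the 64 Fn1 peaks became 8 at 8-fold with p at most 0.001 and 0 at 16-fold with p at most 1e-05, and the 22 exons with a peak became 4 at 8-fold. The 8 peaks past 8-fold became 5 sites, 33 peaks at 6-fold and 0 at 16-fold. The 10 peaks at the highest −log10 p became 6 sites, and 44 peaks had a −log10 p of at least 50. Stricter limits and joining lower these counts by construction, and looser limits raise them. The placement in exons held for all 64 peaks under every overlap and exon model tried. With the chosen shift moved by 1 nt it held for all 64, and by 10 nt for 60 or 61. Larger moves were not among these alternatives. The sites numbered 22 to 37. The share of exons with a peak 15 to 35 nt upstream of the junction was 72.7% over peaks and over sites and 75% among peaks past 8-fold, which leave 4 exons, and it was 77.3% for a window of 10 to 40 nt. The share of peaks nearer the exon's 3′ end ranged from 50.0% to 61.5%. The 3 Mb check, the shifts of 1 nt and the count without exon 1 were added after the data were seen. Depth limits all values to an unknown extent, since no read totals are given.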

Other observations

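Fn1 peaks often began at 1 distance from the exon start. In 11 of the 22 exons with a peak, 1 peak began between base 72 and base 80 of the exon, and no peak began between bases 61 and 70. These were exons 3, 5, 7, 8, 11, 12, 13, 14, 15, 19 and 28, whose lengths run from 122 to 273 nt, and their fold changes ran from 4.29 to 7.13. Only the first 10 bases of exons held as many peak starts, 11 in 9 exons, and no other class of 10 nt up to base 200 held more than 6. Among the 45 exonic peaks of neighbouring genes within 3 Mb, 1 began between bases 71 and 80. Those peaks were placed in the longest overlapping exon of any coding transcript, so this count is not fully alike to that of Fn1. The classes were chosen after the values were seen, the difference was not tested, and the part that the peak caller's way of dividing a region plays in it was not tested.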
